A study of Mus musculus with 8 samples.

Results

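The enzymes and adaptor proteins that act directly behind the T cell receptor were followed in B220+CD3+ cells sorted from mouse spleen. The 9 genes described were Lck, Fyn, Zap70, Lat, Lcp2, Plcg1, Vav1, Prkcq and Nfatc1, chosen by name for their place in this pathway, out of 17384 genes in the table. All 9 had enough reads for the test, as did 12340 genes in all. The series held 4 RNA sequencing libraries labelled Faslpr and 4 labelled EAF2Faslpr. Per the design text, the former came from Faslpr mice and the latter from Faslpr mice that also lacked Eaf2 (Eaf2-/-Faslpr), and the stated purpose was to find signalling pathways in apoptosis. Both groups thus carried the lpr defect of the death receptor gene Fas, and there was no group with intact Fas. The sources used here do not give age, sex, pooling of animals, the part of Eaf2 that was deleted or the cells in which it was deleted. Nor do they say that replicates were separate animals. The p-values therefore reflect the spread of these libraries alone, which may be technical.

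When the receptor binds its ligand, the Src family kinases Lck and Fyn phosphorylate the CD3 chains, and the kinase Zap70 binds to the phosphorylated chains. Zap70 phosphorylates the adaptors Lat and Slp-76 (the product of Lcp2), which together hold the phospholipase Plcg1 and the exchange factor Vav1. Plcg1 makes the second messengers that activate protein kinase C theta (Prkcq) on one branch and, through calcium and calcineurin, the transcription factor Nfatc1 on another. B cells run a parallel cascade with related proteins, among them Blk and Lyn in place of Lck and Fyn, Syk in place of Zap70, Blnk in place of Slp-76 and Plcg2 in place of Plcg1. B220+CD3+ cells accumulate in Faslpr mice, and most of them are T cells that have lost CD4 and CD8.

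Eaf2 averaged 4.74 ± 1.05 CPM (counts per megaread of the library after scaling, SD, n = 4) in EAF2Faslpr and 25.6 ± 4.50 CPM in Faslpr, with no overlap (exact two-sided permutation p = 0.0286, the smallest that 4 libraries against 4 allow). Estimated reads per library ranged from 15.56 to 18.64 M (megareads), and each of the 9 genes had between 3264 and 23899 reads in a library. Replicates differed beyond counting error, as chi-square per degree of freedom was 9.46 to 37.2 for pairs within a group. Pairs with Faslpr replicate 4 gave 23.6 to 37.2, the other Faslpr pairs 13.5 to 15.7, and EAF2Faslpr pairs 9.46 to 23.5. T cell markers summed to between 4080 and 4188 CPM in EAF2Faslpr and between 3705 and 4248 CPM in Faslpr, led by the transcription factor Tcf7. The 16 B cell markers summed to between 759.5 and 1172 CPM in EAF2Faslpr and between 644.6 and 718.7 CPM in Faslpr. Of these markers 14 rose and 1 fell (93.8% called at an edgeR adjusted p under 0.05, beside 12.1% of all tested genes). The 1 that fell was Cxcr5, the most abundant, at 240 ± 22.3 against 364 ± 19.7 CPM. Of the 12 T cell markers 1 rose, Cd2, and none fell (8.33% called). Of 11 tested macrophage markers 3 rose and none fell (27.3% called), and of 5 tested neutrophil markers none was called. Replicate 3 of EAF2Faslpr stood apart with the highest sums of B cell, macrophage (186.2 CPM, led over all libraries by Cd68) and neutrophil markers (109.2 CPM, led over all libraries by Cxcr2). The other libraries lay between 69.4 and 110.8 CPM for macrophage markers and between 12.53 and 19.76 CPM for neutrophil markers, and no listed marker was at 0 in all libraries.

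The start regions of 2 pairs of genes are shown because the pairs Plcg1 with Plcg2 and Zap70 with Syk carry the main contrasts below: a T cell gene with a small change or no call against a B cell relative that rose by more. Each run is the RefSeq promoter window of build GRCm38.p6, from 250 bases before to 50 bases after the transcription start, written 5′ to 3′ along the gene's strand. Capitals mark matches, on either strand, to the letters searched. The ETS family was searched as CCGGAA. Factors of the RUNX family were searched as TGTGGT. For E-box factors the letters were CACCTG. The SP family, which binds GC boxes, was searched as GGGCGG. Sites of the NFAT family, to which Nfatc1 belongs, were searched as GGAAAA. For GATA factors the letters were AGATAA. The B cell factor EBF was searched by its palindromic motif. Matches of different motifs could overlap. Plcg1 lies at chr2:160731060-160731359 on the plus strand, Plcg2 at chr8:117498025-117498324 (plus), the first of 3 Zap70 entries at chr1:36761548-36761847 (plus) and the first of 2 Syk entries at chr13:52583187-52583486 (plus).
Plcg1: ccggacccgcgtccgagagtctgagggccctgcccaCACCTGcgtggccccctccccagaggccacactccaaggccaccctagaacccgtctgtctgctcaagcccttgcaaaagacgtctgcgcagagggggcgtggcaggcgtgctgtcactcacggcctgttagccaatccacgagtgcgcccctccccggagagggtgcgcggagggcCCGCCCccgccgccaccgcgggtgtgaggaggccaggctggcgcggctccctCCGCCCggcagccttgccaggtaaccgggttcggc
Plcg2: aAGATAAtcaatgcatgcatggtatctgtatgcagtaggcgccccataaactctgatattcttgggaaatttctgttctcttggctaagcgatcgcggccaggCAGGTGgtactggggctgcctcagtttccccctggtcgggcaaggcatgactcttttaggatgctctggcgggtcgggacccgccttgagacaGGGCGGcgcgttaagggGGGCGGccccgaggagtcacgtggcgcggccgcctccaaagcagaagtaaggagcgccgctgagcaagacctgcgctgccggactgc
Zap70: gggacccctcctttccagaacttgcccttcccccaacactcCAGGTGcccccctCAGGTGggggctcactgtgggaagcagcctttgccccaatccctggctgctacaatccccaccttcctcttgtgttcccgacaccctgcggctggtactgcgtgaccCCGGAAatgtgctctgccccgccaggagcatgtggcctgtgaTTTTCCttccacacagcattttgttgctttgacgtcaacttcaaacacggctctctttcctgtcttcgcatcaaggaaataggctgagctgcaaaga
Syk: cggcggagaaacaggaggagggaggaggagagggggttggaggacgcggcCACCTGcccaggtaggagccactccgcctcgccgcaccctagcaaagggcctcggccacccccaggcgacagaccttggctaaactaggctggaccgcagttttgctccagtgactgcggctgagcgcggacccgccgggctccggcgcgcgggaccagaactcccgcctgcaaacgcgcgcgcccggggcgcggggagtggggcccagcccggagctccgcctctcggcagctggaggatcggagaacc

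The Plcg1 window held 1 E-box, starting 214 bases before the transcription start, and 2 SP matches. Its relative Plcg2 had 1 GATA match, 1 E-box and 2 SP matches, and both windows had 1 SP match that began 37 bases before the start. The first Zap70 window held 2 E-boxes, 1 ETS match and 1 NFAT match, while the first Syk window held only 1 E-box among the motifs searched. The second Syk window, not printed, held 1 E-box and 1 NFAT match, and the other Zap70 windows held no NFAT match. GC content was 72% for Plcg1 and Syk, 60% for Plcg2 and 57.3% for Zap70. The RefSeq table had windows for 8 of the 9 genes (11 windows in all). The E-box letters stood in 6 of these 11 windows, in Lck, Zap70, Plcg1 and Vav1, with more than 1 window each for Lck and Zap70. They also stood in 8 of 26 windows of the paralogs and in 18.0% of the 12560 windows of all tested genes. RUNX letters stood in 3 of the 11 (13.0% of all windows), SP letters in 5 (60.5%), NFAT letters in 2 (20.8%), ETS letters in 1 (27.1%), GATA letters in 1 (6.76%) and EBF letters in 0 (1.0%). These matches describe letters in the windows and do not show that a factor binds there.

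All 9 genes were strongly expressed in both groups. By the authors' FPKM values, which divide by transcript length and so allow levels of different genes to be set side by side, they lay between the 86.3 percentile (Plcg1) and the 99.2 percentile (Lck and Lat) of tested genes. Lat, the membrane adaptor on which the signalling complex is built, was highest at 616.8 FPKM in EAF2Faslpr and 581.0 FPKM in Faslpr. The Src family kinases followed, Lck at 550.9 and 556.0 FPKM and Fyn at 336.4 and 386.0 FPKM in EAF2Faslpr and Faslpr. Zap70 had 163.9 and 200.9 FPKM and Nfatc1 157.9 and 180.6 FPKM in the same order of groups. Prkcq (115.2 and 118.6 FPKM) and Lcp2 (112.7 and 106.3 FPKM) came next. The exchange factor Vav1 (55.43 and 52.25 FPKM) and the phospholipase Plcg1 (54.26 and 44.81 FPKM) were lowest. The order of the group means was the same in both groups. Neighbours whose ranges overlapped were Lat with Lck, Zap70 with Nfatc1 and Vav1 with Plcg1 in both groups, and Prkcq with Lcp2 in EAF2Faslpr only. Within single libraries, Lat was above Lck in 4 of 4 EAF2Faslpr and 2 of 4 Faslpr libraries, and Vav1 above Plcg1 in 2 of 4 and 4 of 4. Zap70 was above Nfatc1 in 3 of 4 libraries of each group, and Prkcq above Lcp2 in 3 of 4 EAF2Faslpr libraries. Without the replicates numbered 4 Lck (534.7 FPKM) stood just above Lat (533.6 FPKM) in Faslpr.

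The comparison of EAF2Faslpr with Faslpr asked whether RNA of the proximal signalling genes differed when Eaf2 was missing. Plcg1 rose by a small amount, 8 genes did not pass the test, and none fell. That is 1 of 9 genes (11.1%) in either direction, beside 12.1% of all 12340 tested genes, of which 7.14% rose and 4.96% fell (edgeR quasi-likelihood test, adjusted p under 0.05). The share among the 9 genes was thus near that of all genes. The median log2 fold change of the 9 genes was -0.03, beside -0.01 over all tested genes. The median size of the change, without its sign, was 0.08 on the log2 scale, beside 0.14 over all tested genes and 0.10 over the 960 tested genes in the same range of mean CPM. Without adjustment, 4 of the 9 genes had p under 0.05 in edgeR. This is a larger share, on 9 genes only, than the 3070 of all 12340 tested genes or the 220 of the 960 genes in the same CPM range.

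**Figure D1:**
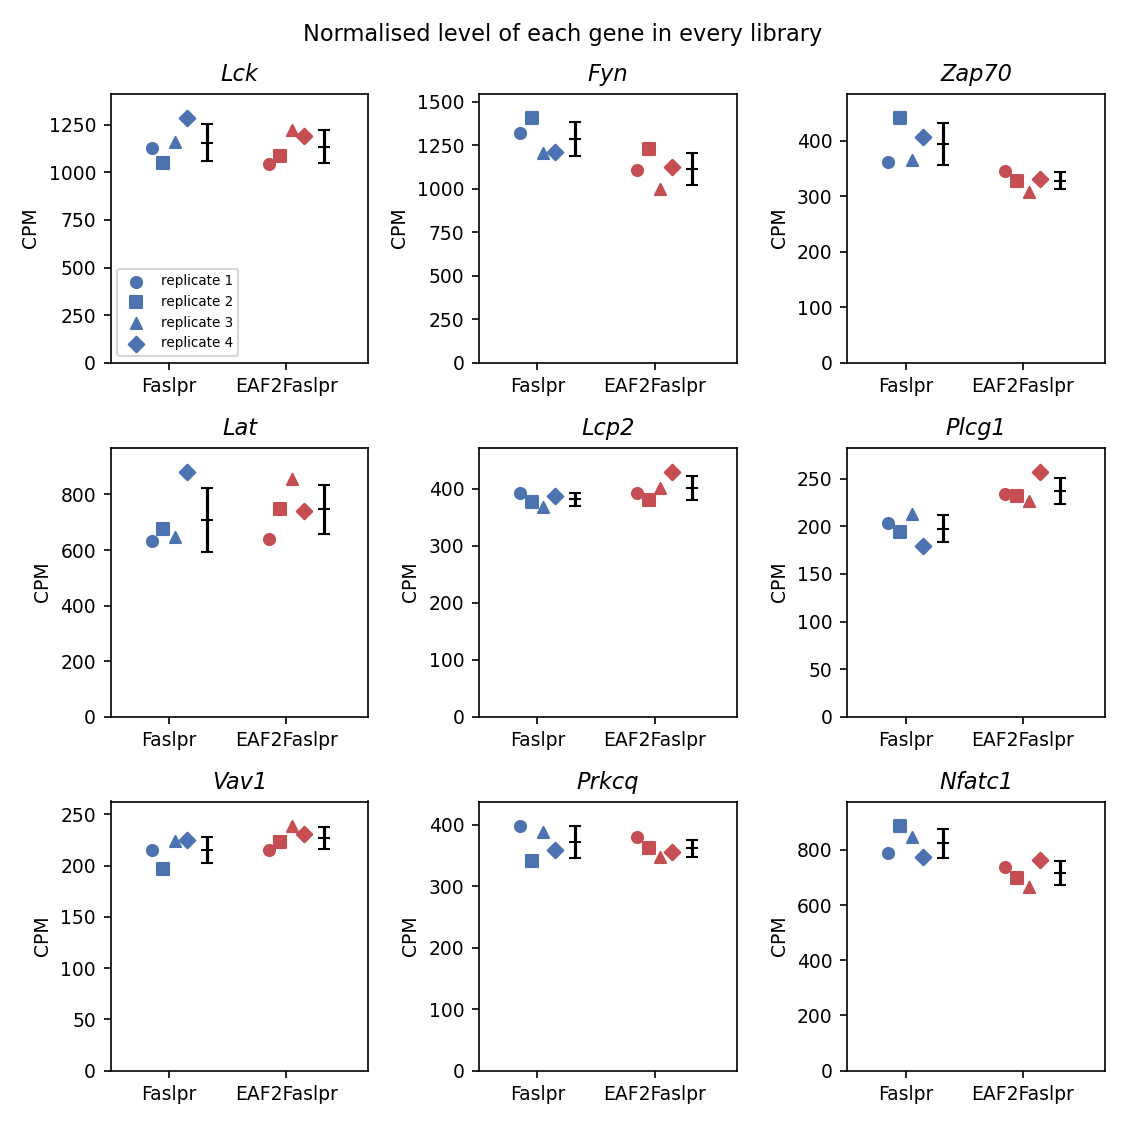
CPM (y axis, from 0, a scale of its own in each panel) of the 9 genes in the 4 Faslpr (blue) and 4 EAF2Faslpr (red) libraries; marker shapes give the replicate number, and black bars the mean and SD. For Plcg1 every EAF2Faslpr library lies above every Faslpr library, for Zap70 and Nfatc1 every one lies below, and the other 6 genes overlap.

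Lck, the kinase that starts the cascade, had 1043, 1088, 1221 and 1192 CPM in EAF2Faslpr replicates 1 to 4 and 1126, 1050, 1162 and 1286 CPM in Faslpr replicates 1 to 4. The groups overlapped over most of their range, with the highest library in Faslpr and the lowest in EAF2Faslpr. The log2 fold change was -0.03 ± 0.08 (SE), with a 95% interval that allowed a change between -13.7% and 11.9% (edgeR adjusted p = 0.891).

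Fyn, the second Src family kinase at the receptor, had 1107, 1226, 999.8 and 1126 CPM in EAF2Faslpr and 1318, 1407, 1206 and 1209 CPM in Faslpr. Most EAF2Faslpr libraries were below the Faslpr range, but replicate 2 reached into it. The fitted log2 fold change was -0.20 ± 0.08 (SE), a difference of -13.2%, and did not pass after adjustment (edgeR adjusted p = 0.157).

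Zap70, the kinase that docks on phosphorylated CD3 chains, had 345.7, 327.7, 308.2 and 330.9 CPM in EAF2Faslpr and 362.2, 441.5, 365.7 and 407.0 CPM in Faslpr. Every EAF2Faslpr library was below every Faslpr library, with a gap that was small beside the spread of Faslpr. The means were 328.1 ± 15.4 and 394.1 ± 37.6 CPM (SD, n = 4), a log2 fold change of -0.26 ± 0.08 (SE) or -16.7%. This missed the threshold (edgeR adjusted p = 0.0587), passed with DESeq2 (adjusted p = 0.0183; DESeq2 called 15.4% of its tested genes) and passed in edgeR without Faslpr replicate 3 (adjusted p = 0.0487).

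The adaptor genes gave no call. Lat had 640.2, 747.6, 855.2 and 741.9 CPM in EAF2Faslpr and 632.3, 674.6, 647.8 and 881.0 CPM in Faslpr. Its widest values were Faslpr replicate 4, far above the other Faslpr libraries, and EAF2Faslpr replicate 3. The log2 fold change was 0.07 ± 0.12 (SE; edgeR adjusted p = 0.772), with the widest interval of the 9 genes, from -0.20 to 0.34. Lcp2 was among the steadiest, at 392.9, 380.4, 401.8 and 429.8 CPM in EAF2Faslpr and 393.7, 376.8, 368.8 and 388.0 CPM in Faslpr. Only EAF2Faslpr replicates 3 and 4 lay above the highest Faslpr library. Its log2 fold change was 0.07 ± 0.06 (SE; 95% interval -0.07 to 0.21; edgeR adjusted p = 0.550).

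Plcg1, the phospholipase that makes inositol trisphosphate and diacylglycerol, had 233.6, 231.5, 226.7 and 257.2 CPM in EAF2Faslpr and 203.4, 194.5, 212.9 and 179.2 CPM in Faslpr. Every EAF2Faslpr library was above every Faslpr library, and the 2 replicates numbered 4 were the highest and the lowest of all. The means were 237.2 ± 13.6 and 197.5 ± 14.3 CPM (SD, n = 4), a 1.20-fold rise with a log2 fold change of 0.26 ± 0.07 (SE; 95% interval 0.10 to 0.43; edgeR adjusted p = 0.0437). The call was kept only without Faslpr replicate 3 (adjusted p = 0.0360) among the 8 fits that each left out 1 library, and the adjusted p reached 0.131 in the others. Without both replicates numbered 4 the log2 fold change was 0.18 (adjusted p = 0.151). The call was also lost, at nearly the same size, with the replicate number as a block (0.27, adjusted p = 0.0988) and with no filter on low counts (0.25, adjusted p = 0.0702).

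Vav1, the exchange factor that links the receptor to the actin skeleton, had 214.8, 222.6, 238.6 and 231.2 CPM in EAF2Faslpr and 214.8, 196.9, 223.7 and 225.3 CPM in Faslpr. The groups overlapped, and the log2 fold change was 0.08 ± 0.07 (SE; 95% interval -0.08 to 0.23; edgeR adjusted p = 0.557). Prkcq, the kinase that leads from diacylglycerol to NF-kB, had 380.2, 361.9, 346.9 and 355.7 CPM in EAF2Faslpr and 397.8, 341.4, 388.1 and 359.4 CPM in Faslpr. Here the EAF2Faslpr libraries lay wholly inside the Faslpr range. Its log2 fold change was -0.04 ± 0.07 (SE; 95% interval -0.20 to 0.11; edgeR adjusted p = 0.777).

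Nfatc1, the transcription factor released by calcineurin, had 738.5, 699.4, 664.4 and 765.3 CPM in EAF2Faslpr and 787.5, 887.1, 847.8 and 773.8 CPM in Faslpr. Every EAF2Faslpr library was below every Faslpr library, though the nearest pair, both replicates numbered 4, nearly met. The means were 716.9 ± 44.3 and 824.1 ± 52.9 CPM (SD, n = 4), a log2 fold change of -0.20 ± 0.07 (SE) or -13.0%, which did not pass after adjustment (edgeR adjusted p = 0.117).

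In all, the groups did not overlap for 3 of the 9 genes, 1 higher (Plcg1) and 2 lower (Zap70 and Nfatc1) in EAF2Faslpr. Over all tested genes 17.7% did not overlap, 9.71% higher and 7.96% lower. The 95% intervals of the 9 genes together reached no further than -0.44 (Zap70) and 0.43 (Plcg1) on the log2 scale.

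In bulk RNA, fewer cells of a type and less RNA per cell cannot be told apart. As a scale that does not use the library total, each gene was set against the summed CPM of the receptor chains Cd3d, Cd3e, Cd3g and Cd247. That sum was 1461 ± 54.8 CPM in EAF2Faslpr and 1470 ± 135 CPM in Faslpr (SD, n = 4), with overlap. Zap70 per CD3 was 0.25 lower on the log2 scale in EAF2Faslpr, again with no overlap (exact two-sided permutation p = 0.0286, adjusted p over the 9 genes = 0.257). Plcg1 per CD3 was 0.27 higher, now with overlap (exact p = 0.0571, adjusted p = 0.257). With Cd3e alone as the scale, Plcg1 was 0.375 higher and Zap70 0.151 lower, both with no overlap. Each then had an exact two-sided permutation p of 0.0286 and an adjusted p of 0.129. Fyn per CD3 differed by -0.20 (exact p = 0.114, adjusted p = 0.257) and Nfatc1 per CD3 by -0.20 (exact p = 0.114, adjusted p = 0.257), both with overlap. For the other 5 genes the difference lay between -0.03 and 0.09, with exact p of at least 0.343. No gene passed on this scale. Zap70 had the smallest exact p that 4 libraries against 4 allow and still had an adjusted p of 0.257. A single gene could thus not pass, and the lack of calls does not show a lack of change.

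Within groups, the 9 genes did not move as one block from library to library. Over the 8 libraries, deviations of log2 CPM from the group means gave 36 pairwise Pearson correlations, of which 17 were positive, with a median of -0.08. Lck, Lat and Vav1 deviated together (r = 0.914 for Lck with Vav1, 0.808 for Lck with Lat and 0.585 for Lat with Vav1). Fyn deviated against Lck (r = -0.721) and Vav1 (r = -0.78), and Zap70 against Vav1 (r = -0.707). These values describe 8 libraries in which all genes share the same totals and scaling. The genes whose deviations were most like those of Plcg1, out of 9005 tested genes of at least 10 CPM, were Ino80d (r = 0.981) and Pura (r = 0.98) over the same 8 libraries. Values picked as the highest of so many over so few libraries are high by selection. Neither gene was called (edgeR adjusted p = 0.478 and 0.719).

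The paralogs of the 9 genes are relatives that often serve the same step in other cells. Of 24 listed paralogs 21 were tested (Yes1, Clnk and Nfatc4 had too few reads), and 8 of them (38.1%) rose in EAF2Faslpr while none fell, beside 7.14% of all tested genes that rose and 4.96% that fell, with a median log2 fold change of 0.31 beside -0.01 over all tested genes. Among them were Blk and Lyn of the Src family, Syk, Blnk, Plcg2, Prkcb and Prkce. Lyn and Prkce are named after their values were seen. Most of these RNAs were scarce beside the T cell member of the same family.

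Syk, the B cell and myeloid relative of Zap70, had 42.4, 50.1, 68.3 and 45.0 CPM in EAF2Faslpr and 12.8, 16.4, 28.6 and 15.0 CPM in Faslpr. Replicate 3 was the highest library within each group, and the groups did not overlap. The fitted change was 2.83-fold (log2 fold change 1.5; edgeR adjusted p = 0.00313). Blk, a Src family kinase of B cells, had 12.6, 16.2, 23.8 and 15.8 CPM in EAF2Faslpr and 2.87, 4.95, 5.17 and 2.85 CPM in Faslpr. It showed the same pattern, with a 4.32-fold rise (edgeR adjusted p = 0.000678). Lyn, another Src family kinase of B and myeloid cells, rose 3.37-fold to 16.7 ± 6.28 CPM from 4.95 ± 1.85 CPM (edgeR adjusted p = 0.00367).

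Plcg2, which takes the place of Plcg1 in B cells, had 15.2, 19.2, 18.63 and 13.5 CPM in EAF2Faslpr and 5.22, 4.89, 9.47 and 6.51 CPM in Faslpr. Every EAF2Faslpr library was higher, and the rise was 2.54-fold (edgeR adjusted p = 0.00276). Both phospholipase C gamma genes, whose start regions are printed above, were thus higher in EAF2Faslpr. Blnk, the B cell counterpart of Slp-76, rose 2.28-fold to 13.5 ± 4.33 CPM from 5.90 ± 2.52 CPM (edgeR adjusted p = 0.0268), and its call was lost without EAF2Faslpr replicate 3 (adjusted p = 0.0763), without Faslpr replicate 1, 2 or 4, and without both replicates numbered 4. Prkcb, the protein kinase C of the B cell cascade, had 103.7, 110.0, 98.3 and 99.6 CPM in EAF2Faslpr and 79.9, 70.9, 75.0 and 63.0 CPM in Faslpr. The rise was smaller, 1.43-fold, with little spread within groups (edgeR adjusted p = 0.00305). Prkce rose 1.36-fold, to 42.1 ± 2.69 from 30.9 ± 2.30 CPM (edgeR adjusted p = 0.00575). The paralogs paired with Lat, Vav1 and Nfatc1 below did not pass: the adaptor Lat2 (38.6 ± 8.24 against 32.7 ± 3.46 CPM), the exchange factor Vav2 (134 ± 3.64 against 125 ± 10.7 CPM) and Nfatc2 (60.2 ± 5.45 against 63.9 ± 3.50 CPM).

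**Figure D2:**
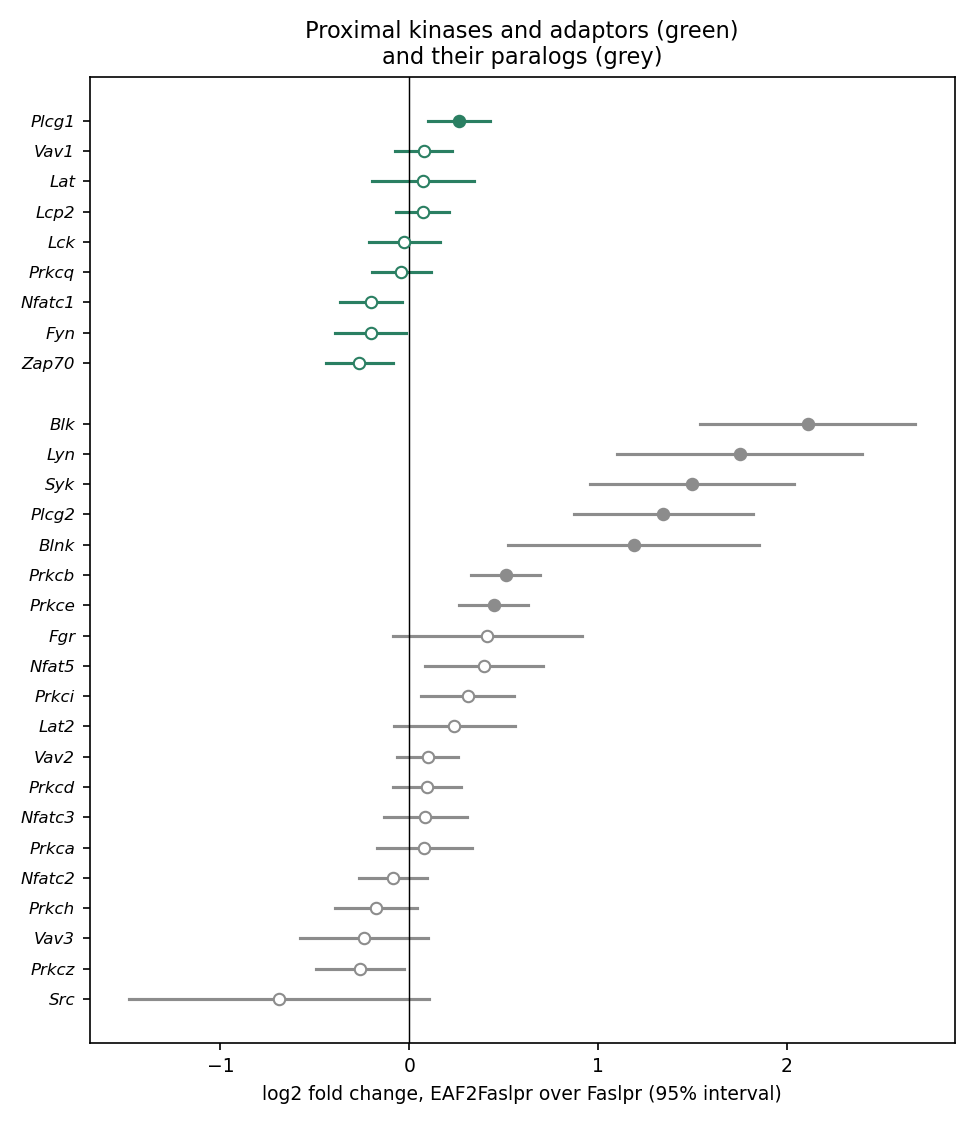
Log2 fold change of EAF2Faslpr over Faslpr (x axis) with its 95% interval for the 9 genes (green) and 20 of their 21 tested paralogs (grey); filled points passed at an adjusted p under 0.05 in edgeR. The green points lie between -0.26 and 0.26, and the 7 filled grey points between 0.45 and 2.11.

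Most of the 16 listed B cell markers were higher in EAF2Faslpr, like these paralogs. The only ones with a negative log2 fold change were Cxcr5 (-0.60, edgeR adjusted p = 0.00114) and Ralgps2 (-0.22, edgeR adjusted p = 0.325). The 14 B cell markers other than Cxcr5 and Ralgps2, a subset taken after values were seen, summed to 407.5, 428.5, 771.9 and 419.4 CPM in EAF2Faslpr and to 110.8, 155.4, 176.8 and 143.0 CPM in Faslpr. The highest library in each group was replicate 3, which was also the highest in its group for Syk, Blk, Lyn and Blnk. In Plcg2 and Prkcb it was not the highest EAF2Faslpr library. Without EAF2Faslpr replicate 3 the log2 fold change was 1.33 for Syk, 1.91 for Blk, 1.45 for Lyn, 1.28 for Plcg2, 0.94 for Blnk, 0.53 for Prkcb and 0.48 for Prkce. Of the 8 that rose, 7 passed in that fit (not Blnk). The part of B cell or myeloid RNA in these changes was not tested.

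**Figure D3:**
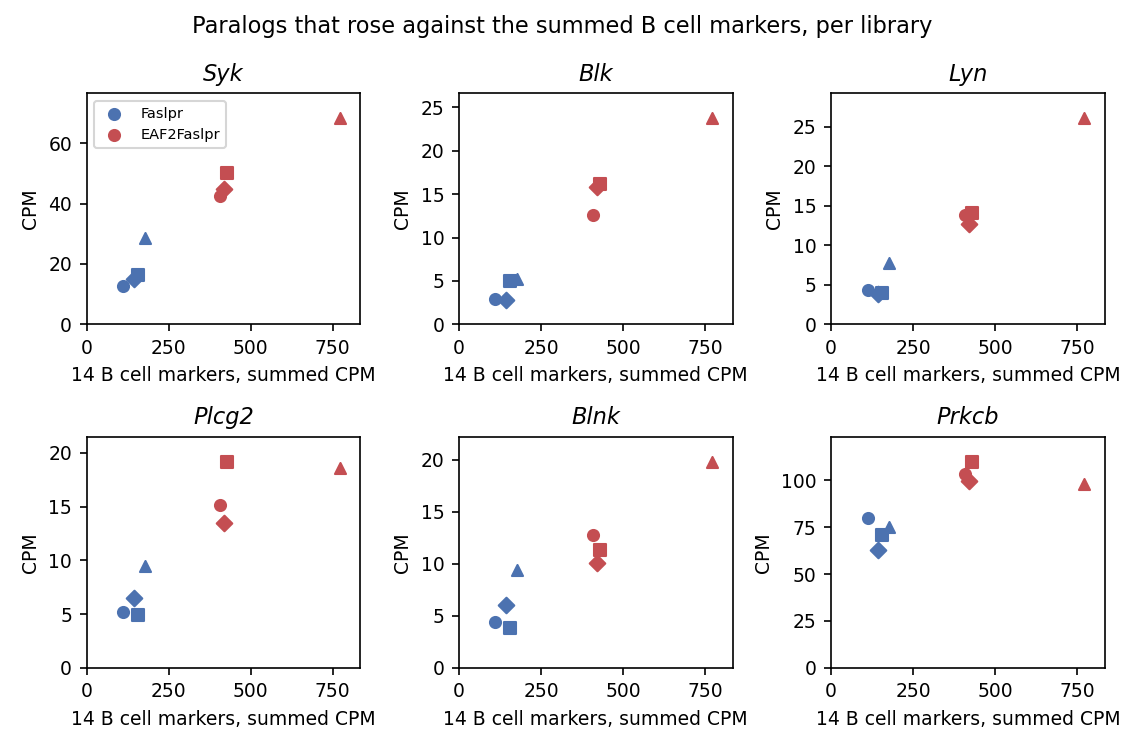
CPM of 6 paralogs that rose (y axis, from 0) against the summed CPM of 14 B cell markers (x axis) in the 4 Faslpr (blue) and 4 EAF2Faslpr (red) libraries; circles, squares, triangles and diamonds are replicates 1 to 4. The sum leaves out the listed B cell markers Cxcr5 and Ralgps2, whose means were lower in EAF2Faslpr. EAF2Faslpr replicate 3, at a summed 771.9 CPM, is the highest library for Syk, Blk, Lyn and Blnk and not for Plcg2 or Prkcb.

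The balance between each gene and a paralog was taken as the log2 ratio of their FPKM values in each library. The pairs were set with earlier results of these data known. Syk, Plcg2, Blnk and Prkcb are among the paralogs that rose above, so their ratios largely restate those rises and are not separate support. Of the other protein kinase C paralogs Prkce rose, while Prkca, Prkcd, Prkch, Prkci and Prkcz gave no call (named after their values were seen). Zap70 exceeded Syk 64.1 ± 20.3 times in Faslpr and 17.1 ± 3.67 times in EAF2Faslpr (SD, n = 4). The log2 ratio was 6.14, 6.14, 5.05 and 6.21 in Faslpr and 4.35, 4.05, 3.59 and 4.21 in EAF2Faslpr. The groups did not overlap and replicate 3 was the lowest of each, with a difference of -1.83 (exact two-sided permutation p = 0.0286, adjusted p over the 8 ratios = 0.0762). Plcg1 exceeded Plcg2 31.3 ± 8.30 times in Faslpr and 14.3 ± 3.23 times in EAF2Faslpr, a log2 difference of -1.06 with no overlap (exact p = 0.0286, adjusted p = 0.0762). This difference was -0.70 with a pseudocount of 1 FPKM in place of 0.1. The ratio of Prkcq to Prkcb was 13.9 ± 0.44 in Faslpr and 9.52 ± 0.59 in EAF2Faslpr, a log2 difference of -0.54 with no overlap and little spread (exact p = 0.0286, adjusted p = 0.0762). Lcp2 exceeded Blnk 35.5 ± 13.1 times in Faslpr and 15.4 ± 4.44 times in EAF2Faslpr, with overlap (log2 difference -1.14, exact p = 0.0571, adjusted p = 0.114).

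Other ratios differed little. Nfatc1 exceeded Nfatc2 16.7 ± 0.76 times in Faslpr and 15.7 ± 0.30 times in EAF2Faslpr (exact p = 0.0857, adjusted p = 0.137). Lat exceeded Lat2 28.03 ± 4.76 and 25.1 ± 3.52 times (exact p = 0.4), Vav1 exceeded Vav2 2.08 ± 0.21 and 2.03 ± 0.05 times (exact p = 0.971), and Lck exceeded Fyn 1.45 ± 0.22 and 1.65 ± 0.23 times (exact p = 0.257), in Faslpr and EAF2Faslpr. In these 8 pairs the proximal gene exceeded its paralog in every library. That does not hold for every listed paralog: Prkch, another protein kinase C gene (named after its values were seen), had 220.76 to 317.11 FPKM, above Prkcq at 110.01 to 123.28 FPKM. No ratio passed after adjustment, and with 4 libraries a group the exact test cannot go below 0.0286 before it.

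**Figure D4:**
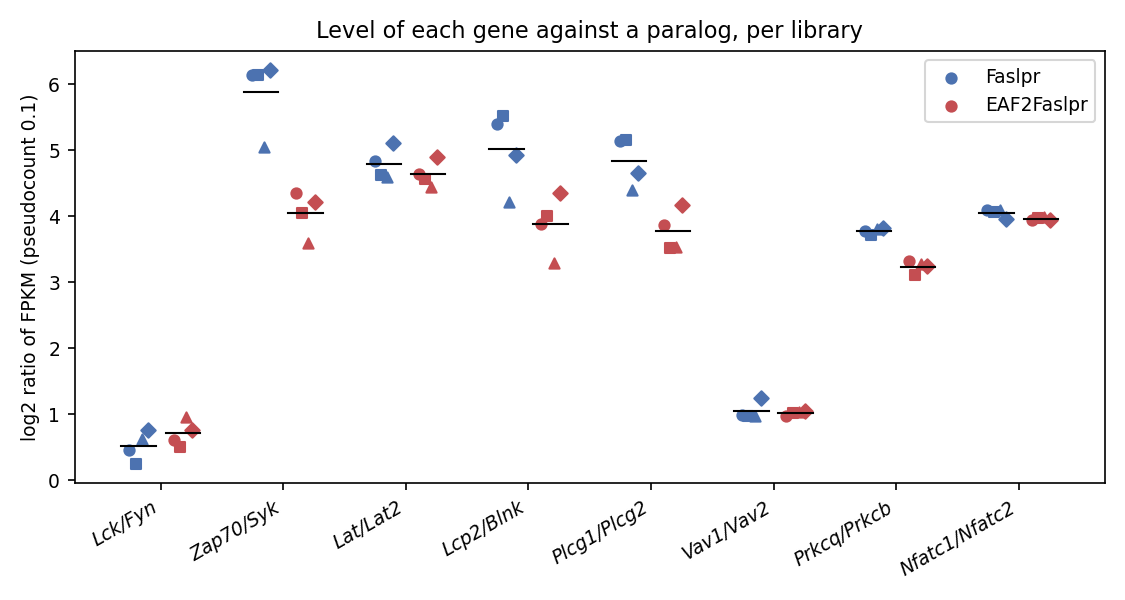
Log2 ratio of FPKM (y axis, pseudocount 0.1) of each gene over a paralog in the 4 Faslpr (blue) and 4 EAF2Faslpr (red) libraries; marker shapes are replicates 1 to 4 as circle, square, triangle and diamond, and lines are group means. Zap70/Syk, Plcg1/Plcg2 and Prkcq/Prkcb are lower in every EAF2Faslpr library than in any Faslpr library, and all ratios are above 0.

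At the receptor itself, the 4 CD3 chains and the costimulatory receptor Cd28 gave no call, while all 3 coreceptor genes on the list rose (37.5% of 8 genes called, beside 12.1% over all tested genes). Cd4 had 98.4 ± 31.7 CPM in EAF2Faslpr against 36.3 ± 13.98 CPM in Faslpr, Cd8a 20.7 ± 5.29 against 5.63 ± 2.64 CPM, and Cd8b1 32.2 ± 8.45 against 15.8 ± 1.78 CPM (edgeR adjusted p = 0.00771, 0.00456 and 0.00503). The Cd4 call was lost without both replicates numbered 4 (adjusted p = 0.0584). The coreceptors carry Lck to the receptor, and Lck itself gave no call.

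Of 28 other proximal kinases, adaptors and exchange factors, 2 rose, none fell and 26 did not pass, with a median log2 fold change of -0.01. That is 7.14% called in either direction, below the 12.1% over all tested genes. Themis, an adaptor of developing T cells, rose 2.45-fold to 12.2 ± 3.19 CPM from 4.95 ± 1.28 CPM (edgeR adjusted p = 0.00477). Gab2, a scaffold for the phosphatase Shp2, rose 2.70-fold to 5.11 ± 1.55 CPM from 1.90 ± 0.70 CPM (edgeR adjusted p = 0.0143), a call lost without both replicates numbered 4 (adjusted p = 0.0586). Under DESeq2, 6 of these 28 genes passed as higher and 3 as lower, a larger share than the 15.4% of all tested genes that DESeq2 called.

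Of 16 negative regulators of proximal signalling, 2 rose, 1 fell and 13 did not pass (18.8% called, beside 12.1% over all tested genes), with a median log2 fold change of -0.07. Ptpn6, which encodes the phosphatase Shp-1 that is also abundant in B and myeloid cells, had 85.1, 69.5, 95.2 and 94.7 CPM in EAF2Faslpr and 34.2, 30.9, 49.3 and 46.1 CPM in Faslpr. The groups were far apart, with a 2.15-fold rise (edgeR adjusted p = 0.00168). Ubash3a, a suppressor of receptor signalling in T cells, rose 1.98-fold to 13.1 ± 0.66 CPM from 6.60 ± 1.68 CPM (edgeR adjusted p = 0.00573). Sla2, an adaptor that promotes loss of the receptor from the surface, had 3.73, 4.42, 3.97 and 4.08 CPM in EAF2Faslpr and 17.6, 18.3, 9.41 and 20.1 CPM in Faslpr. It was 4.03-fold lower in EAF2Faslpr (edgeR adjusted p = 0.000395), and Faslpr replicate 3 was the lowest of its group.

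Downstream of Lat and Plcg1, the branches mostly gave no call. In the RAS and ERK branch 1 of 15 genes fell and none rose (6.67% called, beside 12.1% over all tested genes). That gene, Rasa2, which encodes a GTPase activator that switches RAS off, had 180 ± 22.8 CPM in EAF2Faslpr and 256 ± 42.8 CPM in Faslpr (log2 fold change -0.51; edgeR adjusted p = 0.0318). Its call was lost in 5 of the 8 fits that left out 1 library, those without EAF2Faslpr replicate 2, 3 or 4 or Faslpr replicate 1 or 2, with an adjusted p of up to 0.0985.

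In the calcium, calcineurin and NFAT kinase branch 2 of 24 tested genes rose and none fell (8.33% called, beside 12.1% over all tested genes), with a median log2 fold change of 0.03. Lrrk2, a large kinase also known from B and myeloid cells, rose 3.60-fold to 19.2 ± 2.95 CPM from 5.34 ± 1.74 CPM (edgeR adjusted p = 0.000712). Ppp3ca, a catalytic subunit of calcineurin, rose 2.54-fold to 18.7 ± 4.22 CPM from 7.39 ± 1.66 CPM (edgeR adjusted p = 0.00238). The more abundant catalytic subunit Ppp3cb gave no call (188 ± 5.38 against 179 ± 15.8 CPM). The part of B cell or myeloid RNA in the changes of these lists was not tested either.

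Little of the sequence of the 9 genes was shared with other genes. In the GENCODE M21 annotation of GRCm38, none of the 31-base stretches of Lck, Fyn, Zap70, Vav1 and Nfatc1 exons occurred in another gene. The shared part was 1.5% for Lat, with Mir7058 on the same strand, and 4.48% for Plcg1 (2.97% with Zhx3 on the opposite strand). It was 6.21% for Lcp2 (5.36% with 4930469K13Rik) and 6.6% for Prkcq (3.63% with D10Wsu102e), both of these other genes being on the opposite strand. The sources used here do not say whether the authors' counting used strand.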

How the data were processed

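RNA was measured in B220+CD3+ spleen cells of 4 EAF2Faslpr and 4 Faslpr libraries, grouped and numbered by their titles. For 17384 genes the authors deposited estimated counts and FPKM values. HISAT2 2.2.1, RSEM 1.3.1, Bowtie2 2.4.5 and build GRCm39 are named per the submitters' processing notes, which give no roles. Of the deposited estimated counts, 36.8% were whole within 0.001. They were rounded for the tests. Another 16 per-sample columns (normalised read counts and TPM) stayed unused.

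Genes kept by filterByExpr (12340) were scaled with TMM and tested with edgeR's quasi-likelihood test (edgeR 4.0.16, R 4.3.3) over all 8 libraries, with no covariate. Adjusted p-values are Benjamini-Hochberg values over all tested genes, and a gene passed under 0.05. A script checked the fit on simulated data. Log2 fold changes are EAF2Faslpr over Faslpr, with SE the absolute value divided by the square root of F. CPM values are TMM-scaled. Ratios per CD3 used CPM, paralog ratios used FPKM with a pseudocount of 0.1, and both were tested with exact permutation tests over 70 orderings. DESeq2 1.42.0 and limma 3.58.1 were alternatives, as were other scalings, no filter, a replicate block and fits without single libraries.

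The genes and lists were chosen with earlier results of these data known. Named beside the 9 genes and Eaf2 were the paralogs in ratios, in each pathway list the 3 passing genes of smallest p per direction, the most abundant marker of each cell type and the 2 genes most like a passing gene. Ppp3cb, given with no call, was named after its values were seen. Some genes and a further list are not reported here. Promoter windows came from RefSeq by symbol. They matched 8 of the 9 genes and 18 of 24 paralogs.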

Additional observations from a re-analysis of the deposited data

Results flagged for a closer look

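In 4 of 52 sets of 4 libraries tested, 1 library lay far from the other 3 (its gap, as a share of the range, was above Dixon's 95% critical value). Chance gives about 1 such set in 20. Lat had 881.0 CPM in Faslpr replicate 4, while the other Faslpr libraries had 632.3 to 674.6 CPM. The same library stood apart for Lat per CD3, at a log2 ratio of -0.91 against -1.12 to -1.10 in the others. Its Vav1 to Vav2 balance was 1.25 on the log2 scale, against 0.97 to 0.99 in the others. Faslpr replicate 3 had a Zap70 to Syk balance of 5.05, against 6.14 to 6.21 in the other Faslpr libraries.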

How the results depend on the processing

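Plcg1 was called with other scalings, DESeq2 and limma-voom. It was not called with no filter on low counts (log2 fold change 0.25, edgeR adjusted p = 0.0702), with the replicate block (0.27, adjusted p = 0.0988) or without both replicates numbered 4 (0.18, adjusted p = 0.151), so that 0 of the 9 genes passed as higher under each of these settings. Leaving out 1 library at a time gave Plcg1 log2 fold changes between 0.22 and 0.30 and between 0 and 1 genes passing as higher. Zap70 passed as lower with DESeq2 (-0.26, 1 gene passing as lower) and, leaving out 1 library at a time, had values between -0.30 and -0.20, with between 0 and 1 genes passing as lower. Lck had the opposite sign without both replicates numbered 4 (0.0057), and values between -0.0671 and 0.0308 without single libraries. Lat lay between -0.00 and 0.20 without single libraries. The sizes of the other 5 genes kept their sign and stayed without a call in all 15 alternatives. Over all genes, between 990 (without Faslpr replicate 2) and 1599 were called without single libraries, against 1493, and between 372 and 659 were called lower, against 612. Without both replicates numbered 4, 403 were called lower. Paralogs called higher numbered 7 to 9 in all alternatives. Genes called lower numbered 1 or 2 among the negative regulators (2 with DESeq2 and without EAF2Faslpr replicate 1 or 4 or Faslpr replicate 4) and 0 to 2 in the RAS and ERK branch (2 with DESeq2, with no filter, without Faslpr replicate 3 or 4 and without both replicates numbered 4). In the calcium branch 1 gene was called lower with DESeq2, without Faslpr replicate 4 and without both replicates numbered 4, and among the other proximal genes 1 was with the replicate block.

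Same-numbered libraries correlated at 0.272, 0.196, -0.02 and -0.14 in their deviations, and libraries of different number at -0.434 to 0.286. These values cannot decide whether the numbers pair the samples. With the replicate block the SE was smaller for Syk (0.0998 against 0.2435) and larger for Plcg1 (0.0853 against 0.0744). The replicate block called 1425 genes and changed no other call among the 9 genes. No ratio passed in any alternative, and the lowest adjusted p of an exact test was 0.0571. With so few libraries no exact p could go below 0.0286 before adjustment, so this does not show a lack of change. Ratio differences kept their sign except Lck per CD3 (0.0853 with Cd3e alone, 0.0477 without EAF2Faslpr replicate 1, 0.0069 and 0.0104 without Faslpr replicate 1 and 3; lowest -0.0652), Prkcq per CD3 (0.0698 with Cd3e alone, 0.0364 and 0.0126 without Faslpr replicate 1 and 3; lowest -0.1087) and Vav1 over Vav2 (0.0452 without Faslpr replicate 4; lowest -0.0495). Counting depth limits the scarce paralogs more than the 9 genes.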
